A study of Mus musculus with 2 samples.

Results

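Cytosolic ribosomal protein genes encode the proteins of the ribosome that translates messenger RNA in the cytoplasm. They were taken here as all genes whose symbol is Rpl or Rps followed by a digit, together with Rpsa, Rplp0, Rplp1 and Rplp2. Of 380 symbols that matched, 277 annotated as pseudogenes by the ending -ps and 10 Rps6k kinase genes were left out, which left 93 genes of 53380 features. By role they were 43 large subunit genes, 31 small subunit genes, 3 stalk genes and 15 paralogues or copies of another member. The remaining gene, Rps19bp1, matches by name only and encodes a binding protein of the S19 protein. Of the paralogues or copies, the GENCODE M21 annotation lists Rps4l, Rpl37rt, Rpl6l, Rpl32l, Rps12l1, Rps3a2 and Rps3a3 as processed pseudogenes. Levels are in CPM, the UMIs (unique molecules counted) of a gene per 1000000 UMIs of the summed cells. A mean of at least 10 CPM over both libraries was reached by 86 of the 93 genes. The 7 below it were Rpl3l, Rpl10l, Rpl39l, Rpl32l, Rps12l1, Rps3a2 and Rps3a3, which are all paralogues or copies. Rpl6l, another copy, passed only through its injured value.

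The cells were endothelial cells of adult mouse sciatic nerve. In both groups a Cdh5(PAC)-CreERT2 driver, which acts in endothelium, had switched on the R26-TomatoLSL reporter, and tdTomato-positive, CD45-negative cells were sorted. One group came from pooled uninjured nerves (intact) and the other from the bridge, the tissue that forms in the lesion, 7 days after injury (injured). With 1 library per group there were no replicates and no test was made. All intervals below are 95% intervals that cover counting error only. The animals, the sort and the sequencing run cannot be told apart from the injury itself.

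A ribosome holds 1 copy of nearly every one of these proteins, bound to ribosomal RNA in a large and a small subunit. The stalk of the large subunit is the exception, since it carries several copies of the Rplp1 and Rplp2 proteins on a base made of Rplp0, and it recruits the translation factors that drive each round of elongation. Most ribosomal protein mRNAs start with a 5' terminal oligopyrimidine tract (TOP), a run of C and T bases at the first transcribed base, through which mTORC1 signalling controls their translation. Growing and dividing cells are known for high ribosome production.

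The authors' table gave a class to 2301 cells, and the 9 classes whose names begin with EC were used. The libraries shared 298 barcodes, and a cell was left out where the same barcode held at least 5 times its UMIs in the other library, which removed 100 intact and 48 injured endothelial cells. This left 718 intact cells (4542225 UMIs, median 4461 per cell) and 1274 injured cells (19989024 UMIs, median 11684). All 8 endothelial markers were detected in both libraries, with a sum of 7006 CPM in intact and 4588 CPM in injured cells. Of the 8, 5 were lower in injured cells, Cldn5 with 2634 and 577 CPM and Flt1 with 1192 and 445 CPM among them. The other 3 were higher, Cdh5 with 833 and 1132 CPM among them. Summed markers of other cell types were lower in the injured library, with 1064 and 220 CPM for 9 pericyte and smooth muscle genes and 324 and 44.5 CPM for 4 haemoglobin genes. For 6 fibroblast genes the sums were 60.5 and 36.1 CPM, of which Dcn made 46.2 and 8.20 CPM, while 4 of the 6 were higher in injured cells, Col1a1 with 3.52 and 11.2 CPM among them. The sums were 48.2 and 8.05 CPM for 9 myeloid features. Their part in the results was not tested. Ptprc, which encodes the CD45 sorted against, and the myeloid genes Itgam and Adgre1 were at 0 in both libraries. Xist was 3.33-fold higher and Ddx3y lower at 0.354 of its intact level in the injured library, so the mix of sexes among the pooled animals cannot be told apart from the injury either.

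Ribosomal protein genes took up 17.6% of intact endothelial UMIs (800433 UMIs) and 22.2% of injured UMIs (4438536 UMIs), which made the share 1.26-fold higher after injury (1.257 to 1.263). The intact cell at the median gave 16.1% of its UMIs to these genes, with cells from 2.40 to 41.9% and the middle 50% from 11.8 to 20.7%. The injured cell at the median gave 21.7%, with cells from 1.46 to 45.8% and the middle 50% from 18.0 to 25.2%. Cells of both libraries thus overlapped over most of their range, while the centre of the injured cells lay above that of the intact cells. Mitochondrial genes held 4.94% of intact and 3.58% of injured UMIs, and the nuclear RNA Malat1 held 3.18% and 1.45%. Depth was therefore higher along with the ribosomal share, while the mitochondrial share and Malat1 were lower. The part of all 3 in the ribosomal share was not tested beyond the matched bins and cell selections given here.

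Within bins of cells matched for depth, the injured share was higher in 5 of 6 bins. From 6000 to 12000 UMIs it was 17.9% in 172 intact cells and 21.8% in 389 injured cells, and from 12000 to 25000 UMIs it was 17.7% in 79 and 22.2% in 398 cells. In the bin of 1500 to 3000 UMIs the order was the other way, at 16.04% in 144 intact and 13.9% in 41 injured cells. In bins of mitochondrial share the injured value was higher in 6 of 7. Cells with under 2% mitochondrial UMIs had close values of 25.3% (77 cells) and 26.2% (222 cells), and cells with 10 to 20% had 12.7% (45 cells) and 11.7% (30 cells). In both libraries the ribosomal share was lower in bins of higher mitochondrial share, and the 2 percentages are parts of the same total.

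**Figure D1:**
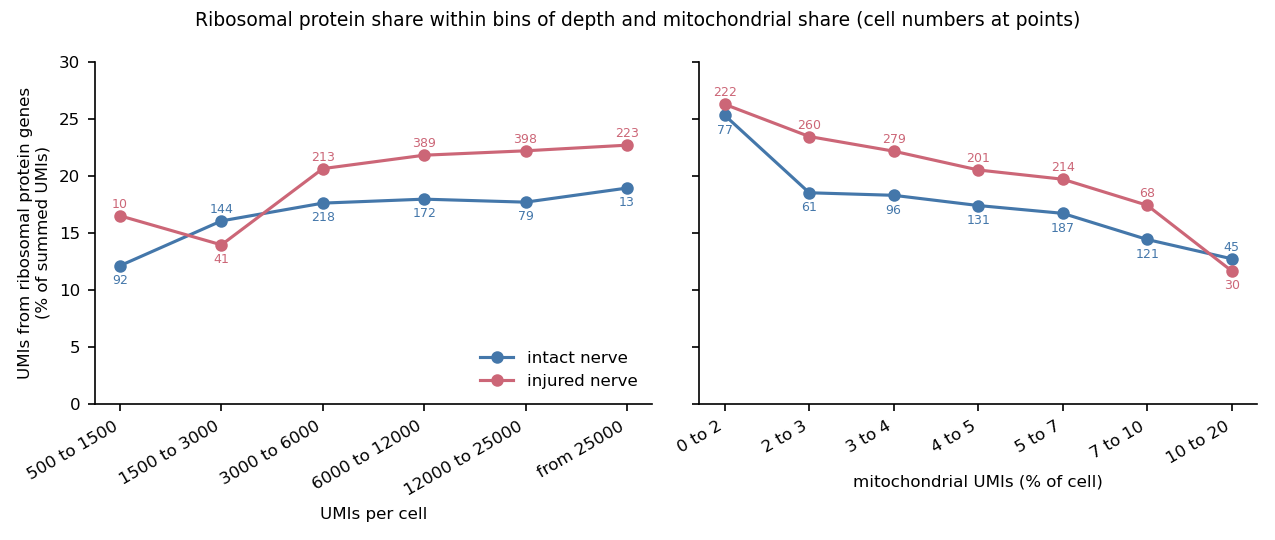
Ribosomal protein share of summed UMIs (percent) in bins of cell depth (UMIs per cell) and of mitochondrial share (percent) for the intact and the injured library, with the number of cells in each bin. The injured points lie above the intact points except at 1500 to 3000 UMIs (16.04 and 13.9%) and at 10 to 20% mitochondrial UMIs (12.7 and 11.7%).

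The share differed among endothelial classes, and the gap between the libraries differed with it. Class names are those of the authors' table, which does not spell out ART, BAR, CAP, VEN, IMMAT, PROLIF, TIP or PV. In intact nerve the lowest share among classes with at least 20 cells was 11.9% in EC_CAP-PV- (128 cells), followed by 12.99% in EC_CAP-PV+ (42 cells), 15.9% in EC_ART (91 cells), 18.5% in EC_BAR (181 cells), 18.6% in EC_VEN-PV+ (213 cells) and 22.3% in EC_VEN-PV- (44 cells). EC_BAR and EC_VEN-PV+ were neighbours whose counting intervals, 18.4 to 18.6% and 18.5 to 18.6%, overlapped. The order thus ran from the EC_CAP to the EC_VEN classes.

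In the injured nerve those of the same classes that had at least 20 cells lay closer together. EC_CAP-PV+, with 13 injured cells, fell below that number and had 18.4%. EC_ART had 19.7% (144 cells), EC_CAP-PV- 20.2% (76 cells), EC_VEN-PV+ 21.1% (362 cells), EC_VEN-PV- 23.4% (121 cells) and EC_BAR 23.7% (36 cells). The class EC_IMMAT, which had 4 intact cells, was the highest of all at 25.4% (260 cells). EC_PROLIF had 21.97% (162 cells) and EC_TIP 21.3% (100 cells), both near the pooled injured value of 22.2%. The G2/M genes, which mark dividing cells, had a sum of 24.7 CPM in intact and 493 CPM in injured cells. The share ratio without EC_PROLIF was 1.26, and the part of dividing cells in it was not tested further. Without all 3 of EC_IMMAT, EC_PROLIF and EC_TIP the ratio was 1.20.

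The share was higher in the injured library in all 5 classes with at least 20 cells on both sides, by unequal amounts. The ratio was 1.69 in EC_CAP-PV- (1.68 to 1.71), 1.28 in EC_BAR (1.27 to 1.29), 1.24 in EC_ART (1.23 to 1.249), 1.14 in EC_VEN-PV+ (1.13 to 1.14) and 1.05 in EC_VEN-PV- (1.04 to 1.06). Of these, the class that was lowest in intact nerve thus had the largest ratio and the class that was highest had the smallest. In EC_VEN-PV- the ratio turned to 0.993 when every barcode found in both libraries was left out, so its direction rested on those barcodes. Median depth per cell was 2628.5 and 11917 UMIs in EC_CAP-PV-, but 8544 and 9394 UMIs in EC_VEN-PV-, so the depth gap between the libraries was also wide in the former and narrow in the latter. The part of depth in this order was not tested, though among cells of at least 3000 UMIs the EC_CAP-PV- ratio was 1.66.

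**Figure D2:**
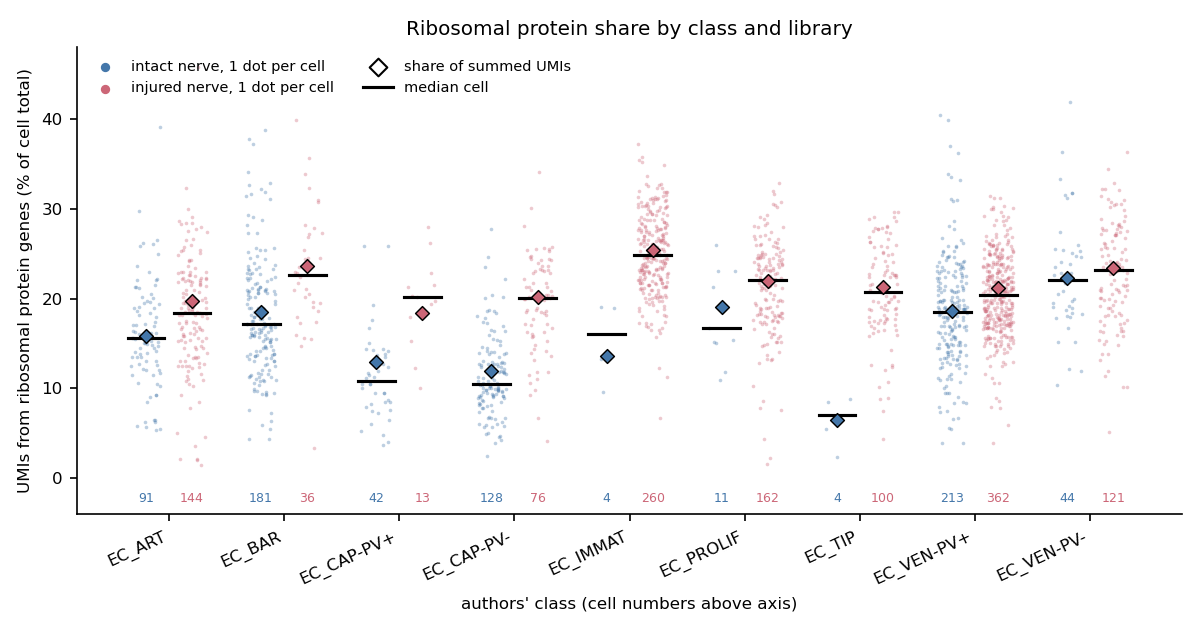
Share of each cell's UMIs from ribosomal protein genes (percent, 1 dot per cell) by the authors' class in the intact and injured libraries, with the median cell as a bar and the share of summed UMIs as a diamond. The summed share is 11.9% (intact) and 20.2% (injured) in EC_CAP-PV- and 22.3 and 23.4% in EC_VEN-PV-, and EC_IMMAT, at 25.4%, is highest in the injured library.

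Gene by gene, ribosomal protein genes leaned toward higher values in injured cells. The median log2 ratio of injured to intact CPM, with 5 CPM added to both, was 0.33 over the 86 measured members and 0.04 over all 8268 measured genes. Of the members, 69 had a ratio above 0 on the log2 scale and 17 below, beside 4404 above and 3864 below of all 8268 measured genes. At least 25% higher in injured cells were 45 of 86 (52.3%), beside 28.9% of all measured genes. At least 20% lower, the same step on the log2 scale, were 4 of 86 (4.65%), beside 24.4% of all. With the filter at a mean of 50 CPM, 43 of 83 members were higher, beside 36.2% of 3094 genes, and 4 lower, beside 24.7%. Large changes were few, because 15 members were at least 1.5-fold higher (background 14.2%) and 2, Rplp0 and Rpsa, at least 2-fold higher (background 4.79%). Rpl6l passed the filter only through its injured value and so could only count as higher. It is among the 69, the 45 and the 15. No member was 1.5-fold lower (background 13.9%) or 2-fold lower (background 6.82%). Members past the smallest step thus leaned to the higher side, while at 1.5-fold and above their share was near that of all genes or under it.

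**Figure D3:**
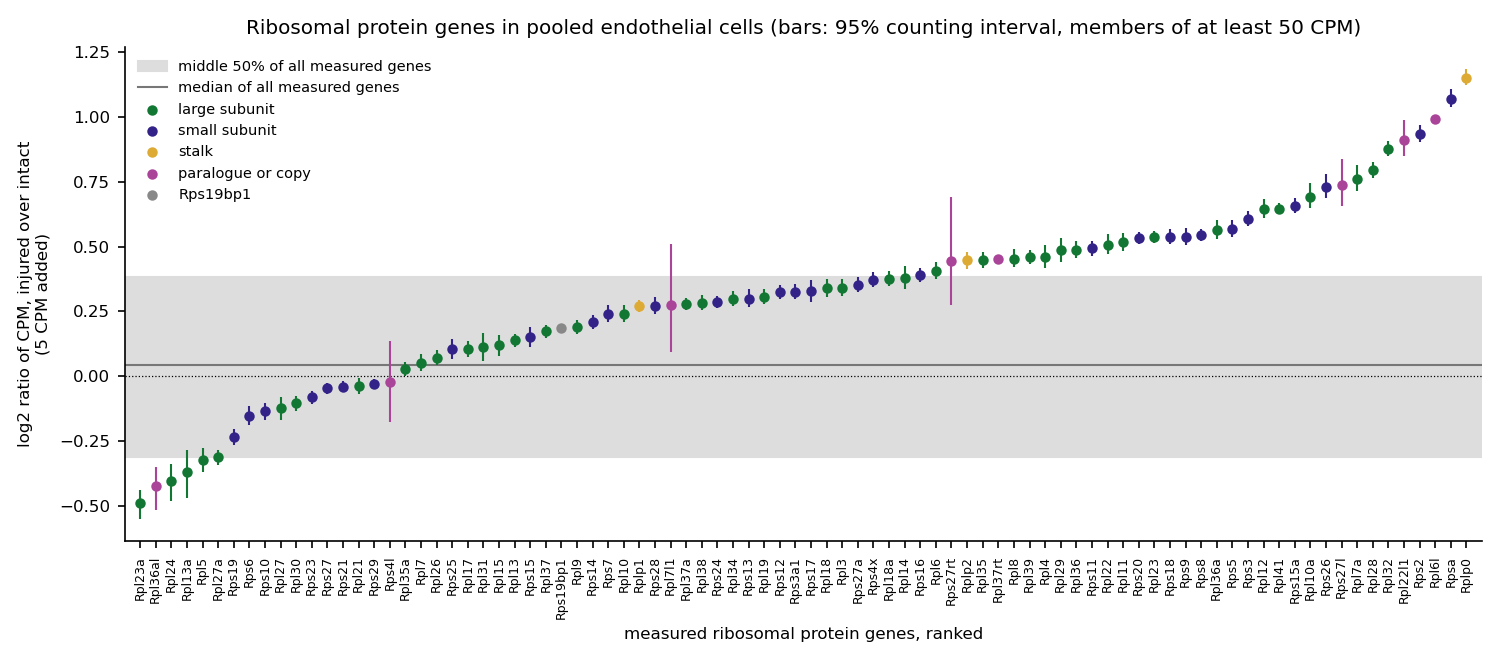
Log2 ratio of CPM in injured over intact endothelial cells (5 CPM added) for the 86 measured ribosomal protein genes, ranked and coloured by role, with 95% counting intervals of the ratio for members of at least 50 CPM and the middle 50% of all measured genes in grey. Values run from -0.49 for Rpl23a to 1.15 for Rplp0, and 69 of the 86 lie above 0, beside 4404 of all 8268 measured genes.

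Of the members with the highest ratios the first was Rplp0, which forms the base of the stalk. Rplp0 (chr5:115559467-115563727, plus strand) had 2091 CPM in intact and 4648 CPM in injured cells, a 2.22-fold higher level (2.18 to 2.27). Over the 6 intact classes with at least 100000 UMIs its level ran from 1504 CPM in EC_CAP-PV+ to 2653 CPM in EC_VEN-PV-. Over the 8 injured classes of that depth it ran from 3658 CPM in EC_ART to 5354 CPM in EC_IMMAT. Classes of 1 library are not replicates, and these members were picked by their pooled ratio, so class ranges only describe them. The other stalk proteins moved less, with 4203 and 5071 CPM for Rplp1 (1.21-fold, 1.19 to 1.22) and 1911 and 2606 CPM for Rplp2 (1.36-fold, 1.33 to 1.40). The summed stalk genes were 1.502-fold higher (1.49 to 1.52).

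Rpsa, a small subunit protein also known as the laminin receptor, had 1598 CPM in intact and 3360 CPM in injured cells (2.10-fold, 2.05 to 2.15). Its class levels ran from 930 to 2007 CPM in intact and from 2650 to 3966 CPM in injured nerve. Rps2, a small subunit protein, went from 1890 to 3615 CPM (1.91-fold, 1.87 to 1.96), with class levels of 1268 to 2218 CPM in intact and 2882 to 4377 CPM in injured nerve. The transcripts of Rps2 are hard to place, since 31.9% of their 60-base stretches occur in no other annotated gene. The large subunit genes Rpl32, Rpl28 and Rpl7a followed. Rpl32 had 2543 and 4675 CPM (1.84-fold, 1.80 to 1.87), Rpl28 had 2195 and 3811 CPM (1.74-fold, 1.70 to 1.77) and Rpl7a had 781 and 1327 CPM (1.70-fold, 1.64 to 1.76). Of these 3 genes Rpl7a is uncertain, as 20.5% of its 60-base stretches are unique.

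The lowest ratio belonged to Rpl23a, a large subunit protein at the exit of the peptide tunnel. Rpl23a (chr11:78180932-78183584, minus strand) had 767 CPM in intact and 545 CPM in injured cells, a 1.41-fold lower level (1.35 to 1.46). Its class levels overlapped, from 484 to 981 CPM in intact and from 462 to 622 CPM in injured nerve, with the intact low in EC_CAP-PV- and the intact high in EC_VEN-PV-. Rpl24 had 467 and 351 CPM (1.33-fold lower, 1.27 to 1.40), and Rpl13a, known also for silencing certain mRNAs when released from the ribosome, had 266 and 205 CPM (1.30-fold lower, 1.22 to 1.38). For Rpl23a and Rpl24 17.8 and 18.6% of the 60-base stretches are unique to the gene, so reads may be shared with other copies, and for Rpl13a 43.0% are. Together with Rpl36al, a paralogue described below, these were the 4 members at least 20% lower.

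Just short of that step stood Rpl5, which with Rpl11 and 5S RNA forms the complex that binds Mdm2 when ribosome assembly is disturbed. Rpl5 had 1038 and 830 CPM, a log2 ratio of -0.32, and Rpl27a had 2637 and 2122 CPM (log2 ratio -0.31). Rps19, a gene mutated in Diamond-Blackfan anaemia, had 2470 and 2100 CPM (log2 ratio -0.23). Rps6, the substrate of S6 kinases, had 1694 and 1524 CPM (log2 ratio -0.15). The sign of the last 2 was not stable. Rps19 stood at 0.14 when all barcodes were summed, and Rps6 at 0.22 in that setting, 0.08 as a mean over cells and 0.01 with classes weighted equally. Across the 5 classes Rps6 ran from a log2 ratio of -0.28 to 0.75. Its values are uncertain, as 15.6% of its 60-base stretches are unique.

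The 6 members with the highest CPM in intact cells are given here per kilobase of transcript. Rps29 had 15047 CPM per kilobase in intact and 14729 in injured cells, Rps21 had 12043 and 11711, and Rps27 had 10249 and 9923. These small subunit genes differed between the libraries by log2 ratios of -0.03, -0.04 and -0.05, and all 3 changed sign under at least 1 other setting. Rplp1 had 8423 and 10162 CPM per kilobase. Rpl41, which encodes the shortest protein of the ribosome, had 6821 and 10684 CPM per kilobase and so was 1.57-fold higher (1.54 to 1.59). Rps24, with a longer annotated transcript, had 2617 and 3190 CPM per kilobase. Which end of a transcript was read is not stated in the labels, so division by length may not bring long and short transcripts to the same scale.

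Both subunits were higher by a similar factor. The 46 large subunit genes, stalk included, summed to 94240 CPM in intact and 120008 CPM in injured cells (1.27-fold), and the 31 small subunit genes to 80742 and 100298 CPM (1.24-fold). The ratio of large to small subunit CPM went from 1.17 to 1.20, a change of 1.03-fold (1.02 to 1.03). In the 5 classes that change ran from 1.00-fold in EC_BAR to 1.04-fold in EC_ART. The 4 members on the X chromosome all had log2 ratios above 0, as did 69 of the 86 measured members and 4404 of all 8268 measured genes. The values were 0.24 for Rpl10, 0.56 for Rpl36a, 0.46 for Rpl39 and 0.37 for Rps4x. For Rpl10 and Rpl36a 14.8 and 14.9% of the 60-base stretches are unique.

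Relative to their own total, most members stayed within the smallest step. When CPM was scaled to the members' sum in each library, 12 of 86, Rpl6l among them, were at least 25% higher, beside 11.9% of all measured genes. At least 20% lower were 17, beside 47.7%. This scaling lowers the ratio of every gene by the members' own 1.26-fold shift. The 2 backgrounds are therefore moved by construction and cannot show how steady the members were. Rplp0 went from 1.19 to 2.09% of ribosomal protein UMIs and Rpsa from 0.907 to 1.51%. Rps29 went from 3.33 to 2.59% and Rps27 from 2.66 to 2.05%, while their CPM stayed nearly level. Thus the injured mix held more Rplp0 and Rpsa and less of some of the most abundant small subunit mRNAs.

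Paralogues and copies, of which some can replace a core protein in some ribosomes and others are annotated pseudogenes, moved in different directions. Rpl22l1, the paralogue of Rpl22, had 405 CPM in intact and 767 CPM in injured cells (1.89-fold, 1.80 to 1.99), while Rpl22 had 1381 and 1965 CPM. Counted against Rpl22 its UMIs were 29.4% in intact and 39.0% in injured cells, not divided by length. Its share of all ribosomal protein UMIs was lowest in intact EC_VEN-PV+ (0.165%) and highest in injured EC_PROLIF (0.438%), a 2.66-fold span. In EC_VEN-PV- its level was 542 CPM in intact and 528 CPM in injured cells, so this class did not share the difference. In 3 classes found mainly in the injured library its levels were 875 CPM in EC_IMMAT, 922 CPM in EC_TIP and 962 CPM in EC_PROLIF.

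Rps27l, a paralogue of Rps27 and a target of p53, had 249 and 418 CPM (1.68-fold, 1.58 to 1.79). Its UMIs were 5.30% of those of Rps27 in intact and 9.19% in injured cells, and its highest class was EC_PROLIF with 534 CPM. Rpl36al, an autosomal copy of the X-linked Rpl36a, went the other way, from 330 to 244 CPM (1.35-fold lower, 1.27 to 1.43). Against Rpl36a, its UMIs were 21.6% in intact and 10.8% in injured cells. Rps4l, annotated as a transcribed processed pseudogene, had 92.2 and 90.8 CPM, or 3.94 and 2.99% of Rps4x. Its share of member UMIs spanned 3.96-fold over classes. Rpl7l1 had 50.0 and 61.5 CPM beside 1926 and 1997 CPM of Rpl7. Rps27rt had 48.7 and 67.9 CPM, but only 9.21% of its 60-base stretches are unique to it.

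Paralogues known from testis or muscle were nearly silent. Rpl10l had 0 UMIs in both libraries, which allows up to 0.660 CPM in intact and 0.150 CPM in injured cells at 3 counts. Rpl3l, the striated muscle form of Rpl3, had 1 and 4 UMIs, and Rpl39l had 4 and 52 UMIs. Rpl39 itself had 2743 and 3774 CPM.

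The ribosome parts Fau and Rack1 fall outside the name rule and were read beside the members. Fau, which encodes a ubiquitin-like protein fused to S30, had 2851 and 3202 CPM (1.12-fold, 1.10 to 1.14). Rack1, a signalling scaffold on the small subunit, had 1044 and 1799 CPM (1.72-fold, 1.67 to 1.77).

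The 5 classes differed in how many members were at least 25% higher. In EC_CAP-PV- 75 of 86 members were at least 25% higher (background 26.6%) and 0 at least 20% lower (background 35.5%), and 18 were at least 2-fold higher (background 5.76%). In EC_BAR 47 of 86 were higher (background 32%) and 5 lower (background 26.9%), and in EC_ART 39 of 85 were higher (background 30.6%) and 6 lower (background 28.7%). EC_VEN-PV+ had 23 of 85 higher (background 28.4%) and 6 lower (background 22%). EC_VEN-PV- had 17 of 86 higher (background 34.6%) and 13 lower (background 23.9%). The EC_VEN classes thus had no more higher members than genes at large, and the median log2 ratio in EC_VEN-PV- was 0.10 for members and 0.09 for all genes. In EC_CAP-PV- those medians were 0.76 and -0.08. The members' median was 0.37 in EC_BAR, 0.29 in EC_ART and 0.16 in EC_VEN-PV+, beside 0.06, 0.02 and 0.06 for all genes.

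Of 85 members measured in all 5 classes, 47 had a log2 ratio above 0 in every class, 4 below 0 in every class and 34 were mixed. Over all 6856 genes measured in those classes the shares were 20.5% above and 14.05% below. The 4 that were lower throughout were Rpl13a, Rpl23a, Rpl24 and Rpl36al, the same genes that were at least 20% lower in the pool. Higher by at least 25% in every class were 13 members, Rplp0, Rpsa, Rps2 and Rpl32 among them, beside 6.68% of all genes. The log2 ratio of Rplp0 was 1.498 in EC_CAP-PV-, 1.22 in EC_ART, 1.08 in EC_BAR, 0.92 in EC_VEN-PV+ and 0.89 in EC_VEN-PV-.

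**Figure D4:**
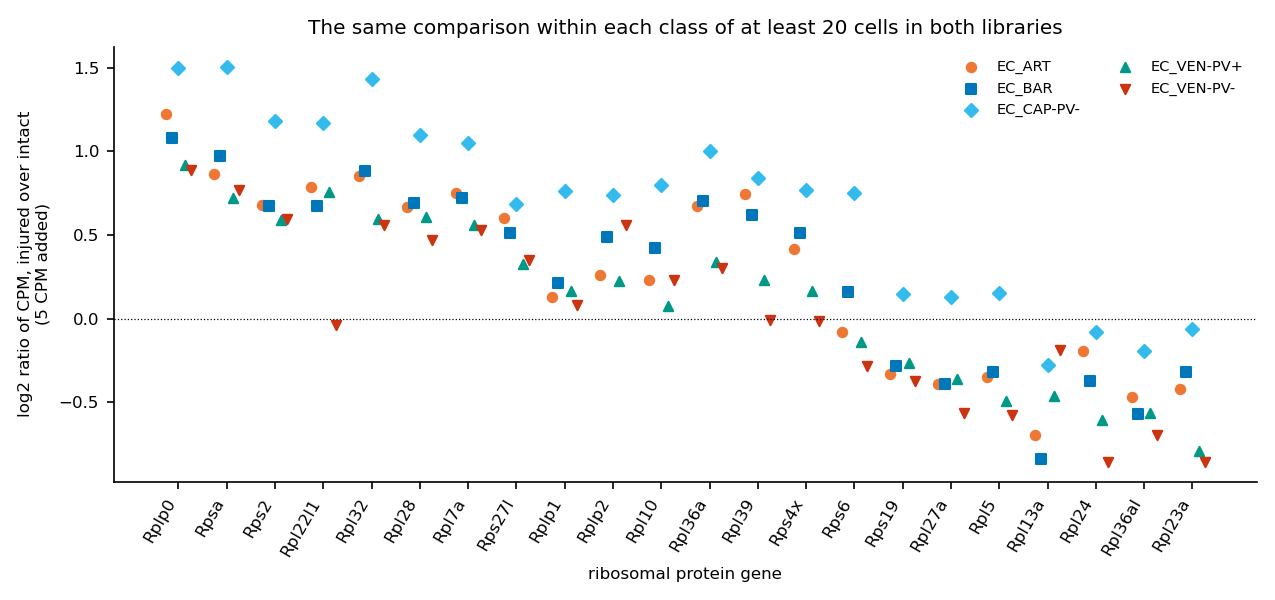
Log2 ratio of CPM in injured over intact cells (5 CPM added) of the named ribosomal protein genes with the highest and lowest pooled ratios, the stalk genes and the X-linked genes in each class with 20 cells or more on both sides, 1 symbol per class. EC_CAP-PV- lies highest for each gene shown except Rpl13a, and Rpl22l1 lies at -0.04 in EC_VEN-PV- beside 0.67 to 1.17 in the other classes.

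Promoter sequences were read from the RefSeq table of build GRCm38.p6, in which 68 of the 93 members had an entry. The first-listed start of each symbol was used, with 250 bases before it and 50 after. A TOP-like start, taken as C at the first base followed by 4 bases that are each C or T, stood in 14 of 68 members (20.6%) and in 2.49% of all 27025 symbols. Allowing such a run to begin within 5 bases of the start gave 44.1% of members and 18.5% of all symbols. Start windows of genes with the highest and lowest ratios are shown so that their pyrimidine runs can be compared. Rpl32, among the 8 highest, and Rpl23a, the lowest, had no entry and are missing. Each window holds 15 bases before the start and 15 from it on, and capitals mark its longest run of C and T.
Rplp0 (chr5:115559452-115559481, plus strand): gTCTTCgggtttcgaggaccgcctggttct
Rpsa (chr9:120127751-120127780, plus strand): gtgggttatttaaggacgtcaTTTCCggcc
Rps2 (chr17:24720048-24720077, plus strand): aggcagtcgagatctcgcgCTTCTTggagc
Rpl22l1 (chr3:28805493-28805522, plus strand): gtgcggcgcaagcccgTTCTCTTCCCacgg
Rpl28 (chr7:4792950-4792979, plus strand): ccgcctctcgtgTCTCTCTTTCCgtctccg
These 5 had ratios of 1.74 or more, and only Rpl28 has a TOP-like start at the listed first base. Rps2 and Rpl22l1 have one within 5 bases of it, and Rplp0 and Rpsa do not. Rpl7a and Rps27l, also among the 8 highest, are not printed. Their longest runs are 21 and 9 bases. Each has a TOP-like start within 5 bases of the listed start but none at its first base.
Rps6 (chr4:86857353-86857382, minus strand): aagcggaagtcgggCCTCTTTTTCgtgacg
Rps19 (chr7:24884577-24884606, plus strand): tccgaaaTCTCgcgagactcgacgcccgac
Rpl27a (chr7:109519180-109519209, plus strand): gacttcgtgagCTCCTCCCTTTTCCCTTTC
Rpl5 (chr5:107900513-107900542, plus strand): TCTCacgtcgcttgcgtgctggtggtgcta
Rpl13a (chr7:45128731-45128760, minus strand): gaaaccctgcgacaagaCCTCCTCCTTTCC
Rpl24 (chr16:55966260-55966289, plus strand): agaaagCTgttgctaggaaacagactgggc
Rpl36al (chr12:69184053-69184082, minus strand): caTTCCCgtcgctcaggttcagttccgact
Of these genes with low ratios, only Rps6 has a TOP-like start at the listed first base. Rpl27a and Rpl13a have one within 5 bases of it, and the others do not. In Rpl27a a run that begins 4 bases before the start fills the rest of the window, in Rpl13a a run begins 2 bases after the start and reaches the window's end, and Rpl24 has no run above 2. An annotated start can be some bases away from the one used.

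Other motifs were searched in the whole windows on both strands. The letters CCGGAA, the core bound by ETS and GABP factors, stood in 48.5% of members and 15.2% of all symbols. AAGATGGC, the core of the YY1 motif, stood in 7.35 and 2.88%, the E-box CACGTG bound by MYC in 7.35 and 7.24%, and TATAAA in 10.3 and 14.2%. Rpsa and Rplp0, the members with the highest ratios, differ in this. Their windows from 100 bases before the start to 20 after are printed with CCGGAA or its reverse complement TTCCGG in capitals.
Rpsa (chr9:120127666-120127785, plus strand): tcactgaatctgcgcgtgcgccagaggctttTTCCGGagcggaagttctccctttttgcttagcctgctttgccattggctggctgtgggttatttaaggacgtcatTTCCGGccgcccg
Rplp0 (chr5:115559367-115559486, plus strand): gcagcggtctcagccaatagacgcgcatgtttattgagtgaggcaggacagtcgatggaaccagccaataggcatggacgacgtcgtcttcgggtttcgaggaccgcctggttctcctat
Rpsa holds 2 such matches and Rplp0 none in its printed window. A match describes letters only.

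The machinery around the ribosome was read from lists of genes, given here as counts of genes at least 25% higher or 20% lower beside the same backgrounds of 28.9 and 24.4%. Ribosome assembly factors had 24 of 39 measured genes higher and 1 lower, with a median log2 ratio of 0.42. Npm1, a nucleolar chaperone, had 457 and 1186 CPM (2.59-fold, 2.48 to 2.71), and Nhp2, of the complex that modifies ribosomal RNA, had 42.7 and 121 CPM (2.83-fold, 2.44 to 3.29). Sbds, which acts late in large subunit release, was the 1 lower gene, at 121 and 80.7 CPM. With the 5 classes weighted equally 9 of 38 assembly genes were higher and 3 lower, no more than the 24% higher of all genes in that setting, so this count depended on how the classes were weighted. RNA polymerase I subunits and factors, which make ribosomal RNA, had 5 of 15 higher and 0 lower.

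Translation factors also leaned to the higher side when set beside those backgrounds. Elongation and release factors had 9 of 10 genes higher and 0 lower (median log2 ratio 0.58). Eef1a1, which delivers aminoacyl-tRNA, had 5337 and 7578 CPM (1.42-fold, 1.40 to 1.44), and Eif5a had 304 and 558 CPM (1.84-fold, 1.74 to 1.95). Eef1d was the exception at 284 and 267 CPM. Initiation factors had 23 of 35 higher and 1 lower (median 0.49), the latter being Eif4a2 with 360 and 175 CPM, a helicase of the cap-binding complex. Pabpc1, the poly(A)-binding protein and itself a TOP mRNA, had 341 and 664 CPM (1.95-fold, 1.85 to 2.05). Other known TOP mRNAs had 14 of 18 higher and 0 lower (median 0.57), with Vim at 2699 and 6052 CPM and Hnrnpa1 at 228 and 490 CPM. Some genes stand in more than 1 of these lists.

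Ribosomes of mitochondria are built from other proteins, and their 78 genes served as the nearest comparison. Of 74 measured, 43 were at least 25% higher and 1 at least 20% lower, with a median log2 ratio of 0.38 beside 0.33 for the cytosolic genes. Mrpl34 had 41.8 and 120 CPM (2.87-fold, 2.48 to 3.35), and the lower gene, Mrpl23, had 33.5 and 20.7 CPM. The difference between both kinds of ribosome was not tested, and the lean toward higher values was not limited to cytosolic ribosomal proteins.

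Genes that control ribosome production were counted in the same way. Of mTORC1 regulators 3 of 15 were higher and 4 lower (median 0.06). Inhibitors of mTORC1 stood on both sides. The 4 lower genes were all inhibitors. Ddit4 had 192 and 91.2 CPM and Sesn1 30.2 and 9.91 CPM, while Tsc2 had 26.6 and 15.8 CPM and Deptor 21.8 and 15.5 CPM. Among the higher genes Sesn3 had 9.91 and 27.2 CPM and Akt1s1 35.9 and 49.6 CPM. Eif4ebp1, a repressor of cap-dependent translation, was higher with 49.3 and 129 CPM. Of the MYC network 0 of 7 measured genes passed that step in either direction. Of the 7, 6 had log2 ratios below 0 (median -0.23), beside 3864 of all 8268 measured genes. Myc itself had 68.5 and 57.5 CPM. Of the p53 genes read as sensors of disturbed ribosome assembly, 3 of 9 were higher and 4 lower. Cdkn1a, a p53 target that stops the cell cycle, had 211 and 79.1 CPM, while Trp53 had 69.1 and 142 CPM. Noncoding hosts of small nucleolar RNAs with TOP starts had 3 of 8 higher and 2 lower, and Snhg6 was highest at 44.0 and 126 CPM.

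**Figure D5:**
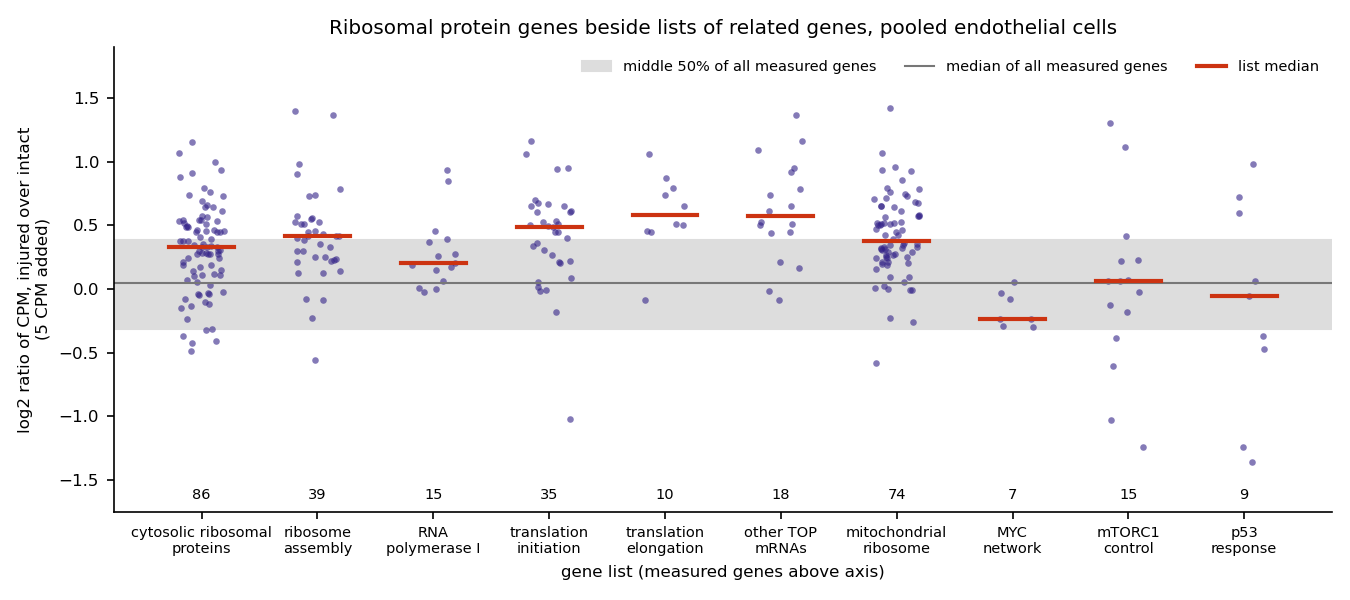
Log2 ratios of CPM in injured over intact endothelial cells (5 CPM added) for genes of each list, 1 dot per measured gene with the list's median as a bar and the middle 50% of all measured genes in grey. The medians are 0.33 for ribosomal proteins, 0.42 for assembly factors, 0.58 for elongation, 0.49 for initiation and 0.38 for mitochondrial ribosomal proteins, and 0.06 for mTORC1 regulators.

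Over the 14 combinations of class and library with at least 100000 UMIs, 3007 genes of at least 50 CPM outside the rule were ranked by the Pearson correlation of their log2 CPM with that of the summed members. The points share 2 libraries and differ in depth, so the values only describe likeness. Naca, which binds the growing peptide at the ribosome, was most alike (r = 0.965), followed by Eef1a1 (0.957), Eef1b2 (0.939), the predicted gene Gm15500 (0.933), Eef1g (0.914), Rack1 (0.903) and Eif3h (0.888). Uqcrh of the respiratory chain (0.886), Mrpl52 (0.878) and the mitochondrial chaperonin gene Hspe1 (0.873) completed the first 10. All 10 had log2 ratios above 0 in the pool, as did 4404 of all 8268 measured genes, with 0.44 for Naca and 0.83 for Hspe1.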

How the data were processed

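RNA was counted in single endothelial cells of 2 libraries, intact and injured nerve. The matrices that the authors deposited give raw UMI counts of each gene in each barcode, without scaling. Per the file headers they came from Cell Ranger 3.0.2. The submitters' processing notes also name Cell Ranger 6.1.2, Seurat 4.0.1, mm10 and GRCm38. A table that the authors also deposited gives the library and class of 2301 cells. How those cells were filtered, classed or checked for doublets is not given in the sources, and no doublet caller was run. INTERMEDIATE, a class in that table, was not used as endothelium.

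The ribosomal protein genes, gene lists and alternatives were chosen with earlier results of these data known. UMIs were summed over cells, and CPM were formed on that total. Shares carry Clopper-Pearson, CPM exact Poisson and ratios exact conditional binomial 95% intervals, and the calculation was checked on simulated data. Genes with a mean under 10 CPM were not measured, log2 ratios had 5 CPM added, and counts of higher or lower genes rest on the size of the ratio (25% higher or 20% lower, 1.5-fold, 2-fold), not on a test. Members named with values were, at 50 CPM or more in the higher library, the 6 most abundant, the 8 highest and 8 lowest log2 ratios and the 5 with the widest span of shares over classes, plus stalk genes, paralogues and X-linked members. Other named members were picked after their values were seen. From the ribosome parts outside the name rule and the list of other TOP mRNAs, 1 gene is not reported here. The alternatives varied the cells kept, their weighting, thinning, scaling, the added CPM and the filter. All 93 members had the same gene ID in the GENCODE M21 annotation of GRCm38, which gave positions and transcripts. Work used Python 3.11.15, numpy 2.4.6, scipy 1.17.1, pandas 2.3.3 and matplotlib 3.10.9.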

Additional observations from a re-analysis of the deposited data

Results flagged for a closer look

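The data left out of the comparisons held 2 signals as well. Barcodes without a class, left out above, gave 16.4% of their UMIs to ribosomal protein genes in the injured library (516 cells, shallower partners left out) and 9.98% in the intact library (738 cells). In the 277 left-out symbols with the ending -ps the summed level was 1183 CPM in injured and 607 CPM in intact endothelial cells, a 1.95-fold higher level (1.87 to 2.03). How many of those UMIs came from the parent genes was not tested.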

How the results depend on the processing

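The share of ribosomal protein UMIs was higher in the injured library under every alternative run. Its ratio, 1.26 in the main result, was 1.26 with shallower partners included, with all shared barcodes left out or without EC_PROLIF, 1.24 in cells of at least 3000 UMIs, 1.21 under 5% mitochondrial UMIs, 1.49 over all barcodes, 1.30 as a mean over cells, 1.24 with classes weighted equally, 1.24 thinned to 3000 UMIs, 1.24 and 1.31 with a total without mitochondrial genes and without those and the members, and 1.22 by the median of gene ratios. Alternatives added after seeing the data gave 1.20 without EC_IMMAT, EC_PROLIF and EC_TIP, 1.21 in cells of 3000 to 12000 UMIs, 1.246 at 2 to 5% mitochondrial UMIs, and 1.26 with paralogues left out and Fau and Rack1 added. With shallower partners included, 8 of 8 classes were higher. Those beyond the 5 of the main result reached 20 cells on both sides only through such partners, which the main result leaves out. The EC_VEN-PV- ratio of 0.993 without shared barcodes was the only class value that changed direction, and the cause was not tested. Members at least 25% higher numbered from 36 without EC_IMMAT, EC_PROLIF and EC_TIP (25.8% of all genes) to 64 over all barcodes (23.2% of all), against 45. Those at least 20% lower numbered 7 under 5% mitochondrial UMIs (24.5% of all) and 1 over all barcodes (27.8%), against 4. Of 30 named members 6 changed sign in at least 1 setting (Rps19, Rps6, Rps29, Rps21, Rps27 and Rps4l), none of them past that step in the main result. With classes weighted equally 9 assembly genes were higher and 3 lower, 2 RNA polymerase I genes higher, 5 noncoding hosts higher and 1 lower, 1 MYC gene higher and 2 mitochondrial ribosomal genes lower. Without EC_PROLIF 1 noncoding host was lower, and by the median of gene ratios 2 MYC genes were. No paired analysis was possible because each group is 1 library. With 1 library per group the difference between libraries cannot be told apart from that between conditions, and depth limits the members under 10 CPM.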
